A study of Homo sapiens with 16 samples.

Results

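A group of 10 plasma membrane amino acid transporter genes was followed through the treatments of a breast cancer cell line. They are SLC1A4, SLC1A5, SLC3A2, SLC7A1, SLC7A5, SLC7A6, SLC7A11, SLC38A1, SLC38A2 and SLC43A1, taken by symbol as 10 of the 23228 gene rows in each count file, and all 10 passed the filter on low counts. The RNA came from MDA-MB231 cells, a human breast cancer line, grown in DMEM with 10% fetal bovine serum and harvested from sub-confluent dishes. Cells were given DMSO as vehicle, methyl methanesulfonate (MMS), which alkylates DNA, sorafenib, an inhibitor of several kinases, at 1 µM, or MMS after 12 h of pre-incubation in sorafenib (the combination). Each was sampled at 8 h and at 24 h, which gave 8 groups of 2 libraries, 16 in all, and the series description speaks of 2 independent experiments. The MMS dose is 40 µg/mL in that description and 40 µM in the sample labels. Times in the combination ran from the MMS addition, so its sorafenib was added 12 h earlier before harvest than in the single-agent group. The sample labels do not say whether sorafenib stayed on during MMS. All groups shared the cell line, the medium and the dish format, and results from 1 line describe that line only.

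Amino acid transporters bring amino acids into the cell as building blocks for protein, as fuel, and as precursors of glutathione, the main thiol antioxidant. SLC3A2, the CD98 heavy chain, is a glycoprotein that does not itself transport, but carries light chains of the SLC7 family to the cell surface. The light chains among the genes described here are 3: SLC7A5 (LAT1) exchanges large neutral amino acids such as leucine, SLC7A6 (y+LAT2) exchanges cationic for neutral amino acids, and SLC7A11 (xCT) imports cystine in exchange for glutamate. SLC1A4 (ASCT1) and SLC1A5 (ASCT2) exchange small neutral amino acids, with glutamine a substrate of SLC1A5. SLC7A1 (CAT1) takes up arginine and lysine without a heavy chain. SLC38A1 (SNAT1) and SLC38A2 (SNAT2) take up glutamine and alanine with sodium, and SLC43A1 (LAT3) carries branched-chain amino acids. Several of these genes are known targets of ATF4, the transcription factor of the integrated stress response, and SLC7A11 is also a known target of NRF2, the factor of the oxidative stress response encoded by NFE2L2.

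Because these factors act through short promoter sequences, the RefSeq promoter windows (GRCh38.p14, 250 bases before to 50 bases after a transcript start) were searched on both strands for the core of the C/EBP-ATF composite element, TGATGNAAN, and the core of the antioxidant response element, TGACNNNGC. Windows were listed for 9 of the 10 genes, all but SLC7A11, and came to 16, since some genes have several starts. The composite core was present in 5 of the 16 windows, of 5 genes, against 3.61% of the 35116 windows listed for all genes. By gene it was present in 5 of 9, against 4.45% of 27305 genes. Some listed starts lie inside the gene as annotated in GENCODE v29. The matches of SLC1A4, SLC3A2, SLC38A1 and SLC1A5 are at such starts, and only that of SLC7A1 is at the gene's annotated start. For SLC1A4, SLC3A2 and SLC1A5 the window at the annotated start held none, and for SLC38A1 no window was listed there. These 5 matches are shown in 30-base stretches in the direction of the gene, with the match in capitals, which is the reverse complement of the motif in SLC1A4 and SLC3A2.
SLC1A4, chr2:64989381-64989410, plus strand: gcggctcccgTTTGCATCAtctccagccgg
SLC3A2, chr11:62881719-62881748, plus strand: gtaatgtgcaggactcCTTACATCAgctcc
SLC38A1, chr12:46266501-46266530, minus strand: cagacccgaaTGATGAAAAgggatcagcta
SLC7A1, chr13:29595662-29595691, minus strand: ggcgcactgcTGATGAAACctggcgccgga
SLC1A5, chr19:46784892-46784921, minus strand: aggaagtggcTGATGCAAGctgtccagggt

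The first base of the match lay at -8 from the listed start in SLC1A4, at 37 in SLC3A2, at -4 in SLC38A1, at 8 in SLC7A1 and at -97 in SLC1A5, negative positions being upstream. The shorter antioxidant core was commoner, in 13.3% of all windows, and was present in 5 of the 16 windows, of SLC1A5, SLC3A2, SLC7A1, SLC7A5 and SLC7A6. The matches of SLC3A2 and SLC7A5 are shown because these genes code for the heavy chain and the most abundant light chain.
SLC3A2, chr11:62881652-62881681, plus strand: cgagggtgggTGACTCAGCgtcctccttcc
SLC7A5, chr16:87869490-87869519, minus strand: gcggggttccTGACGCAGCtgcgggcggcg

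The match in SLC3A2 began at -37 from the same start inside the gene as its composite match. It also contains the letters of an AP-1 site. The match in SLC7A5 began at -2. No match to the one core overlapped a match to the other in these windows. A match is a run of letters and not a measured binding site.

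Libraries held between 16774156 and 26448212 reads counted in genes. Levels are given in CPM, the reads of a gene per 1000000 reads counted in all genes of that library. Of the 7 mesenchymal markers of this line 6 were abundant in every library, the lowest being EGFR at 231 CPM or more, while SPARC reached 0.966 CPM at most. Of the 9 luminal epithelial markers, the keratins KRT8 (177 to 350 CPM) and KRT18 (148 to 268 CPM) were abundant too. The other luminal markers reached 19.3 CPM at most (EPCAM), and the oestrogen receptor gene ESR1 stood at 0 in 4 of 16 libraries and at 0.224 CPM at most. The 7 mesenchymal markers summed to 6559 to 7104 CPM in DMSO at 8 h and to 5174 to 5731 CPM in MMS at 8 h, and at 24 h to 6299 to 6703 CPM and 4983 to 5200 CPM. The 9 luminal epithelial markers also summed lower after MMS at 8 h (372 to 382 CPM against 485 to 510 CPM). Summed leukocyte (5 genes), endothelial (4 genes) and fibroblast (5 genes) markers did not exceed 14.6, 17.7 and 34.4 CPM in any library. The part of these shifts in the transporter results was not tested. In bulk RNA, fewer cells of a kind and less RNA per cell cannot be told apart. Antisense genes overlap exons of SLC1A5, SLC7A5, SLC7A6 and SLC7A11 in GENCODE v29, and the strand setting of the counting is not given. Reads of both strands may thus be joined in these 4 genes, or reads in the shared stretches left out as ambiguous. SLC7A5 also has pseudogene copies that can share its reads.

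MMS alone raised most of the transporter genes within 8 h. Of the 10 genes, 8 rose and none fell by edgeR's quasi-likelihood test at a Benjamini-Hochberg adjusted p under 0.05, beside 26.5% of the 13948 genes tested that passed in either direction and 14.5% that passed as higher. The median log2 change of the 10 genes was 0.62, and that of all genes tested was -0.00. The cystine importer SLC7A11 moved farthest of the 10, and the heavy chain SLC3A2 rose 2.05-fold.

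SLC7A11 (chr4:138164097-138242349, minus strand; this and the other gene positions are from GENCODE v29, GRCh38) stood at 119 and 112 CPM in the DMSO libraries and at 972 and 829 CPM in the MMS libraries at 8 h. The groups lay far apart, and the log2 change was 3.002 ± 0.37 (SE, n = 2 libraries per group, edgeR adjusted p = 0.000123), or 8.01-fold. SLC3A2 (chr11:62856102-62888875, plus strand) stood at 293 and 294 CPM in DMSO and at 594 and 582 CPM in MMS. Its log2 change was 1.04 ± 0.13 (edgeR adjusted p = 0.000122), and the libraries of each group lay close together.

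Of the other light chains, SLC7A5 (chr16:87830023-87869488, minus strand) stood at 741 and 645 CPM in DMSO and at 1003 and 991 CPM in MMS, with no overlap. Its change of 0.56 ± 0.18 passed with an edgeR adjusted p of 0.0396. SLC7A6 (chr16:68264516-68301823, plus strand) stood at 116 and 122 CPM in DMSO and at 124 and 124 CPM in MMS. Its log2 value of 0.10 ± 0.08 did not pass (edgeR adjusted p = 0.414), and it had the smallest change of the 10 genes.

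The neutral exchangers of the SLC1 family both rose. SLC1A4 (chr2:64988477-65023865, plus strand), the less abundant of the pair, stood at 18.0 and 25.9 CPM in DMSO and at 63.5 and 78.7 CPM in MMS, a change of 1.73 ± 0.24 (edgeR adjusted p = 0.000222), or 3.32-fold. SLC1A5 (chr19:46774883-46788594, minus strand) stood at 503 and 468 CPM in DMSO and at 766 and 750 CPM in MMS. The change of SLC1A5 was 0.68 ± 0.11 (edgeR adjusted p = 0.00069), and neither gene's groups overlapped.

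The arginine carrier and the sodium-coupled glutamine carriers passed too, with smaller fitted changes than SLC1A4. The arginine carrier SLC7A1 (chr13:29509410-29595688, minus strand) stood at 347 and 366 CPM in DMSO and at 551 and 574 CPM in MMS, a change of 0.70 ± 0.11 (edgeR adjusted p = 0.000438). SLC38A1 (chr12:46183063-46270017, minus strand) stood at 593 and 676 CPM in DMSO and at 844 and 852 CPM in MMS, a change of 0.46 ± 0.09 (edgeR adjusted p = 0.00256). Its neighbour SLC38A2 (chr12:46358189-46372867, minus strand), the other glutamine carrier, stood at 518 and 513 CPM in DMSO and at 689 and 644 CPM in MMS. The change of SLC38A2 was 0.41 ± 0.14 (edgeR adjusted p = 0.0449). SLC43A1 (chr11:57484534-57515786, minus strand), of low level, stood at 21.5 and 17.3 CPM in DMSO and at 23.1 and 25.0 CPM in MMS. Its value of 0.35 ± 0.15 did not pass (edgeR adjusted p = 0.12), but passed in the fit with the replicate block, which takes out differences between the 2 sets of libraries (adjusted p = 0.0374).

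In all 10 genes both MMS libraries at 8 h lay above both DMSO libraries, though for SLC7A6 by little, beside 28.6% of all genes tested. SLC7A5 and SLC38A2 were the calls that rested on every library in the fit without the block. Without any 1 of the 4 libraries compared, the change of SLC7A5 ran from 0.44 to 0.67 and that of SLC38A2 from 0.35 to 0.44. With the replicate block and all libraries both passed (edgeR adjusted p = 2.5e-05 and 0.000267), beside 43.3% of all genes.

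**Figure D1:**
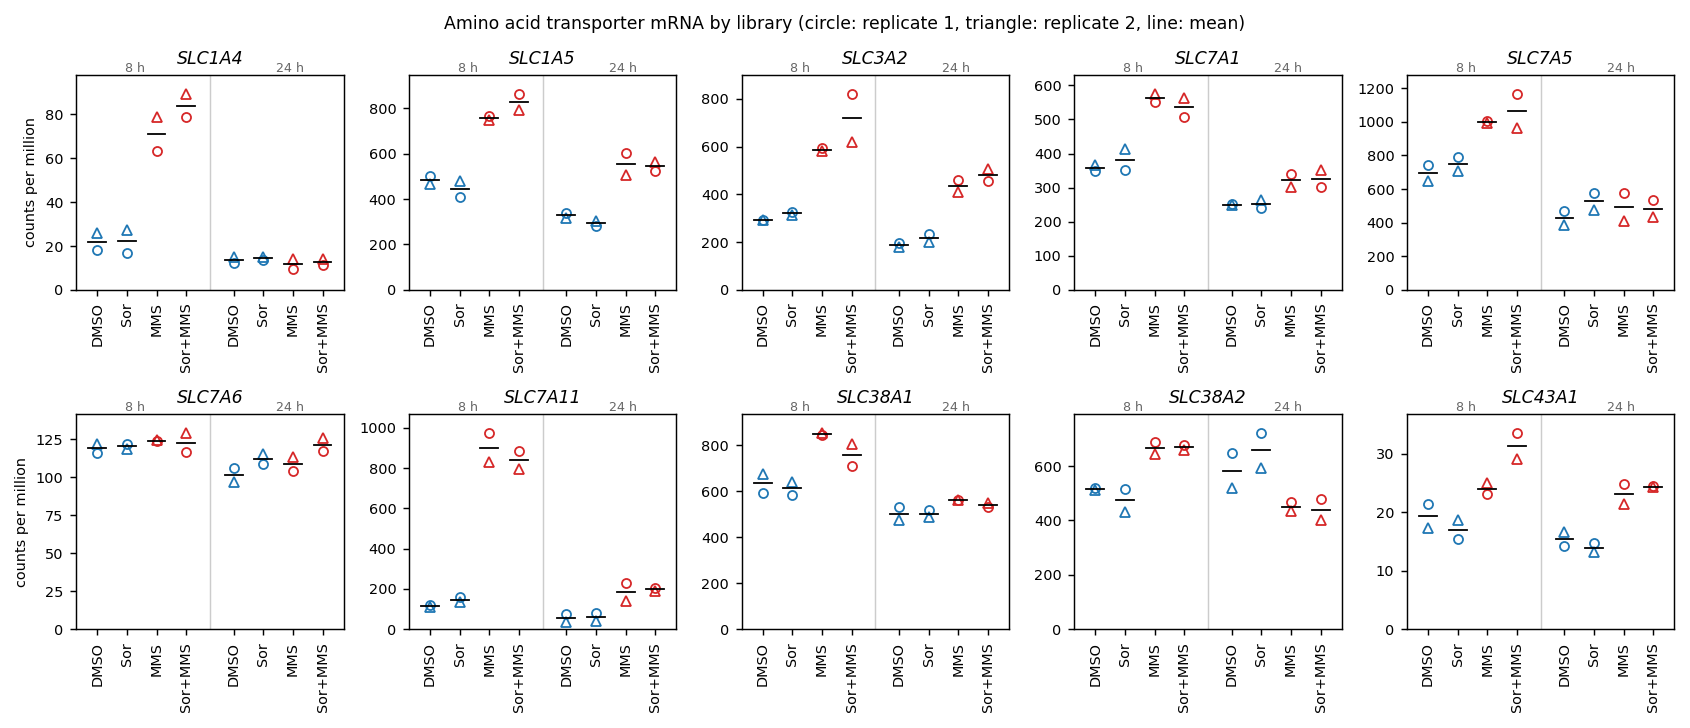
Level of each of the 10 transporter genes in CPM (vertical axes, linear, from 0) in the 8 groups; circles are replicate 1, triangles replicate 2, bars the mean of the 2 libraries, and red marks groups with MMS. SLC7A11 stands at 972 and 829 CPM after MMS at 8 h against 119 and 112 CPM in DMSO, and SLC1A4 is high in the 4 libraries with MMS at 8 h and in none at 24 h.

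At 24 h after MMS the transporters moved in both directions. Of the 10 genes, 5 rose and 1 fell, beside 31.5% of all genes tested that passed in either direction and 15.2% that passed as higher. The median change was 0.24 over the 10 genes and 0.00 over all genes. SLC7A11, SLC3A2, SLC1A5, SLC43A1 and SLC7A1 stood above DMSO, SLC38A2 stood below it, and SLC1A4, SLC7A5, SLC7A6 and SLC38A1 did not pass.

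SLC7A11 stood at 73.2 and 33.7 CPM in DMSO and at 228 and 140 CPM in MMS, a change of 1.74 ± 0.37 (edgeR adjusted p = 0.00382), or 3.33-fold. Its DMSO libraries at 24 h differed 2.17 times, the widest gap between libraries of a group for any of the 10 genes, yet both MMS libraries lay above both of them. Over the fits without 1 library its change ran from 1.29 to 2.41, the latter, 5.30-fold, without DMSO replicate 1. These fits had no replicate block, and SLC7A11 was higher in replicate 1 in 8 of 8 groups. SLC3A2 stood at 198 and 180 CPM in DMSO and at 462 and 409 CPM in MMS, a change of 1.15 ± 0.13 (edgeR adjusted p = 9.7e-05). SLC1A5 stood at 341 and 316 CPM in DMSO and at 601 and 505 CPM in MMS, a change of 0.70 ± 0.11 (edgeR adjusted p = 0.000658). These 3 genes passed in each fit that left out 1 of the libraries compared.

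The other 3 calls at 24 h were smaller. SLC43A1 stood at 14.1 and 16.6 CPM in DMSO and at 24.9 and 21.4 CPM in MMS, a change of 0.53 ± 0.16 (edgeR adjusted p = 0.0207). SLC7A1 stood at 251 and 248 CPM in DMSO and at 340 and 303 CPM in MMS, a change of 0.31 ± 0.11 (edgeR adjusted p = 0.0393). SLC38A2 went the other way, with 647 and 518 CPM in DMSO and 467 and 435 CPM in MMS, a change of -0.42 ± 0.14 (edgeR adjusted p = 0.0343). None of the 3 had overlapping groups. With the replicate block, which called 48.3% of all genes, all 3 passed. The edgeR adjusted p was then 0.00404 for SLC43A1, 0.00566 for SLC7A1 and 0.000199 for SLC38A2. The call of SLC43A1 was lost when DMSO replicate 1 (adjusted p = 0.131) or MMS replicate 1 (0.136) was left out. SLC7A1 passed only without MMS replicate 2 (0.0169) and SLC38A2 only without DMSO replicate 2 (0.0256) among the 4 fits that left out 1 library.

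SLC1A4 stood at 12.3 and 15.0 CPM in DMSO at 24 h and at 9.5 and 14.2 CPM in MMS, overlapping groups with a log2 value of -0.25 ± 0.25 (edgeR adjusted p = 0.475). SLC7A5, with 469 and 384 CPM in DMSO and 577 and 411 CPM in MMS, had a value of 0.16 ± 0.18 (edgeR adjusted p = 0.534), and its groups overlapped too. SLC38A1 had 0.11 ± 0.09 and SLC7A6 0.05 ± 0.08, with edgeR adjusted p of 0.363 and 0.67.

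The difference between the MMS effects at the 2 times was tested as 1 contrast, the log2 change at 24 h minus that at 8 h. It passed for 2 of the 10 genes, both lower, beside 9.13% of all genes. SLC1A4 had a difference of -1.98 ± 0.34 (edgeR adjusted p = 0.00474), since its MMS libraries went from 63.5 and 78.7 CPM at 8 h to 9.5 and 14.2 CPM at 24 h. SLC1A4 passed in each of the 8 fits without 1 library, with an adjusted p of 0.0261 at most. SLC38A2 had a difference of -0.83 ± 0.19 (edgeR adjusted p = 0.0205), from above DMSO at 8 h to below it at 24 h. Among the 8 fits without 1 library, SLC38A2 passed only without DMSO 24 h replicate 2 (0.0239). SLC7A11 had a difference of -1.27 ± 0.50 that did not pass (edgeR adjusted p = 0.144), although its fold was 8.01 at 8 h and 3.33 at 24 h. With the replicate block, which called 25.5% of all genes here, 6 of the 10 genes passed, all lower at 24 h: the former pair, SLC7A11 (-1.24, adjusted p = 0.00262), SLC7A5 (-0.42, 0.0166), SLC7A1 (-0.38, 0.0282) and SLC38A1 (-0.34, 0.0318). The difference was 0.12 ± 0.18 for SLC3A2 and 0.02 ± 0.15 for SLC1A5, neither of which passed with or without the block.

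The levels in DMSO were themselves not the same at both times. In 9 of the 10 genes, all but SLC38A2, both DMSO libraries at 24 h lay below both at 8 h, beside 18.3% of all genes tested. SLC1A5 (-0.59 ± 0.11, edgeR adjusted p = 0.0425), SLC3A2 (-0.67 ± 0.13, 0.0443) and SLC7A1 (-0.54 ± 0.11, 0.0443) fell, 3 of 10 genes beside 0.66% of all genes, and the median was -0.57 over the 10 genes and 0.01 over all genes. With the block, which called 13.6% of all genes here, 8 of the 10 genes fell, all but SLC38A2 and SLC43A1, the largest fall being that of SLC7A11 (-1.20, adjusted p = 0.00124). No gene of the 10 passed when only the DMSO libraries were fitted or when any 1 of them was left out. What differed between dishes at the 2 times beyond the hours in culture, such as density or medium, was not tested.

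No transporter gene of the 10 passed the test after sorafenib at 1 µM alone. None did at 8 h, by edgeR or by DESeq2, with 0 genes at an unadjusted p under 0.05, beside 0.394% of all genes called. Log2 values ran from -0.18 ± 0.15 for SLC43A1 to 0.35 ± 0.35 for SLC7A11, and SLC7A11 stood at 158 and 134 CPM against 119 and 112 CPM. At 24 h none passed either, again by both tools and with 0 genes at an unadjusted p under 0.05, beside 0.817% of all genes. Values ran from -0.18 ± 0.11 for SLC1A5 to 0.30 ± 0.18 for SLC7A5. SLC7A5 stood at 579 and 475 CPM with sorafenib and at 469 and 384 CPM in DMSO at 24 h, and was called with the replicate block (0.30, adjusted p = 0.0424).

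The combination raised most of the genes that MMS alone raised. Against DMSO at 8 h, with which the MMS comparison shares its DMSO libraries, 7 genes rose and none fell, beside 24.3% of all genes called. SLC7A11 stood at 882 and 794 CPM, a change of 2.85 ± 0.37 (edgeR adjusted p = 0.000195). SLC1A4 stood at 78.7 and 89.2 CPM, a change of 1.92 ± 0.24 (edgeR adjusted p = 0.000135). SLC3A2 stood at 820 and 618 CPM, a change of 1.28 ± 0.13 (edgeR adjusted p = 3.6e-05), and the higher of these libraries was the highest of all 16 for this gene. SLC1A5 (0.76 ± 0.11), SLC43A1 (0.68 ± 0.15), SLC7A5 (0.61 ± 0.18) and SLC7A1 (0.58 ± 0.11) made up the 7. SLC38A2 (0.36 ± 0.14, adjusted p = 0.0734) and SLC38A1 (0.25 ± 0.09, adjusted p = 0.0667) passed with the block only, which called 9 of the 10 genes and 39.5% of all genes. SLC7A5 passed only without combination replicate 2 (0.0357) among the 4 fits that left out 1 library, and SLC43A1 did not pass without combination replicate 1 (0.0682) or DMSO replicate 2 (0.0782).

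Against DMSO at 24 h the combination raised 5 genes and lowered 1, beside 33.4% of all genes called. SLC7A11 stood at 205 and 192 CPM (1.84 ± 0.37), SLC3A2 at 455 and 506 CPM (1.30 ± 0.13), SLC1A5 at 522 and 565 CPM (0.67 ± 0.11), SLC43A1 at 24.4 and 24.3 CPM (0.61 ± 0.15) and SLC7A1 at 301 and 350 CPM (0.33 ± 0.11). SLC38A2 stood at 479 and 400.5 CPM (-0.46 ± 0.14, edgeR adjusted p = 0.0223). These are the 6 genes called for MMS alone at 24 h, in the same directions, and both comparisons use the same DMSO libraries. With the replicate block these 6 passed too, beside 7043 of the 13948 genes tested. SLC7A6, at 117 and 126 CPM against 106 and 96.7 CPM, did not pass, but did with the block (0.21, adjusted p = 0.0273) and without DMSO replicate 1 (0.0466). The change of SLC7A11 was 2.51 without DMSO replicate 1. SLC43A1 did not pass without DMSO replicate 1 (0.0747), SLC38A2 did not pass without DMSO replicate 1 (0.195) or combination replicate 2, and SLC7A1 passed only without combination replicate 1 (0.0158).

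Directly against MMS, none of the 10 genes passed for the combination by edgeR or DESeq2 at either time, beside 0.624% of all genes at 8 h and 0.122% at 24 h. SLC38A1 was the 1 gene with an unadjusted p under 0.05 at 8 h, and there were 0 at 24 h. Log2 values ran from -0.21 ± 0.09 for SLC38A1 to 0.33 ± 0.15 for SLC43A1 at 8 h, and from -0.06 ± 0.09 for SLC38A1 to 0.16 ± 0.08 for SLC7A6 at 24 h. The libraries of the groups did not overlap at 8 h in 4 of the 10 genes, higher in SLC1A5, SLC3A2 and SLC43A1 and lower in SLC38A1, beside 40.5% of all genes tested in either direction. SLC43A1 stood at 33.4 and 29.04 CPM in the combination and 23.1 and 25.0 CPM in MMS.

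The interaction of sorafenib and MMS, the change with both agents minus the sum of the single changes, passed for none of the 10 genes and for 0.0% of all genes by edgeR at both times. Over all genes 505 at 8 h and 304 at 24 h had an unadjusted p under 0.05, DESeq2 called 1 gene at each time, and the block called 7 and 4. Among the 10 genes only SLC43A1 at 8 h had an unadjusted p under 0.05, with an interaction of 0.51 ± 0.22, and DESeq2 called 0. SLC7A11 had -0.50 ± 0.49 at 8 h, and the earlier addition of sorafenib in the combination is part of this contrast.

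**Figure D2:**
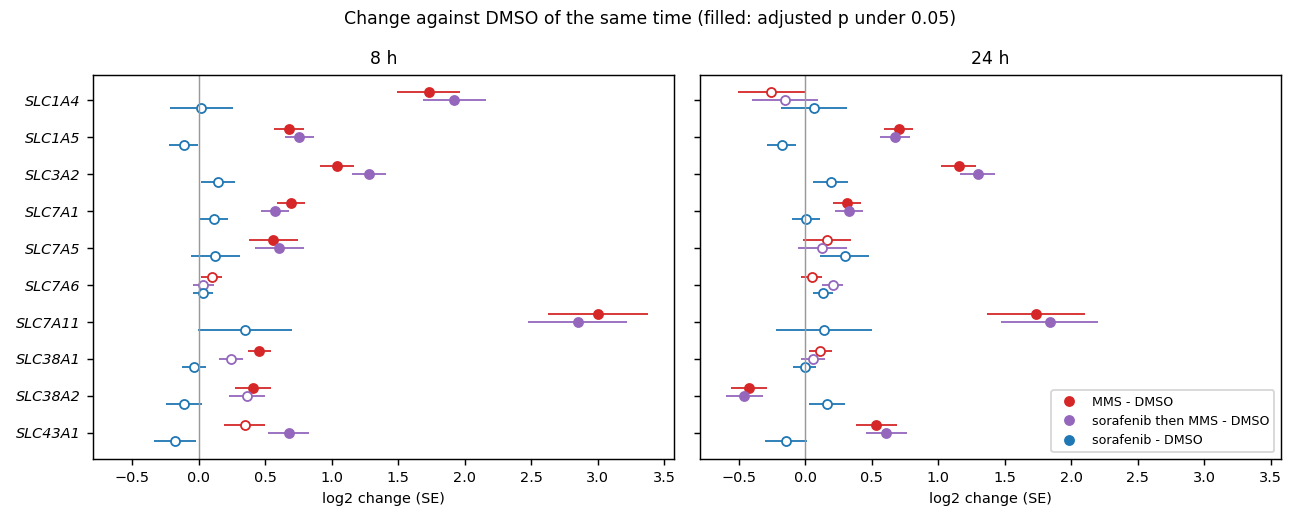
Log2 change against DMSO of the same time (horizontal axes, same scale) for MMS, the combination and sorafenib at 8 h and 24 h, with bars of 1 SE from the edgeR fit and filled points at an adjusted p under 0.05. SLC7A11 lies at 3.002 and 2.85 at 8 h and at 1.74 and 1.84 at 24 h in the 2 comparisons with MMS, SLC38A2 lies on opposite sides of 0 at the 2 times, and no sorafenib point is filled.

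Since SLC3A2 and its light chains form 1 protein complex, their levels were set side by side per kilobase of exon (CPM divided by the union of annotated exon lengths in GENCODE v29, which is longer than any 1 transcript). On this scale SLC7A5 made up 84.1% and 82.0% of the 3 light chains in DMSO at 8 h, SLC7A6 9.5% and 11.2%, and SLC7A11 6.4% and 6.8%. After MMS at 8 h the share of SLC7A11 was 29.7% and 26.7%, and that of SLC7A5 was 64.5% and 67.2%. The cystine importer thus went from the least to the second most abundant of the 3 light chains. At 24 h its share was 6.0% and 3.4% in DMSO and 14.3% and 11.9% in MMS, and in the combination it was 13.6% and 14.9%. The sorafenib libraries had shares of SLC7A11 of 7.9% and 7.4% at 8 h and 5.4% and 3.2% at 24 h.

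The heavy chain stood below the sum of the light chains at 8 h and above it after MMS at 24 h. The ratio of SLC3A2 to the sum of the 3 light chains, both in CPM per kilobase, was 0.575 and 0.646 in DMSO at 8 h, 0.66 and 0.681 in MMS, and 0.85 and 0.744 in the combination. At 24 h it was 0.59 and 0.66 in DMSO and 1.05 and 1.26 in MMS, and in the combination it was 1.097 and 1.43. Sorafenib alone gave 0.597 and 0.632 at 8 h and 0.581 and 0.599 at 24 h, close to DMSO. With 2 libraries in each group no test of these ratios was made, and the mRNA of light chains other than these 3 is not in the sum.

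**Figure D3:**
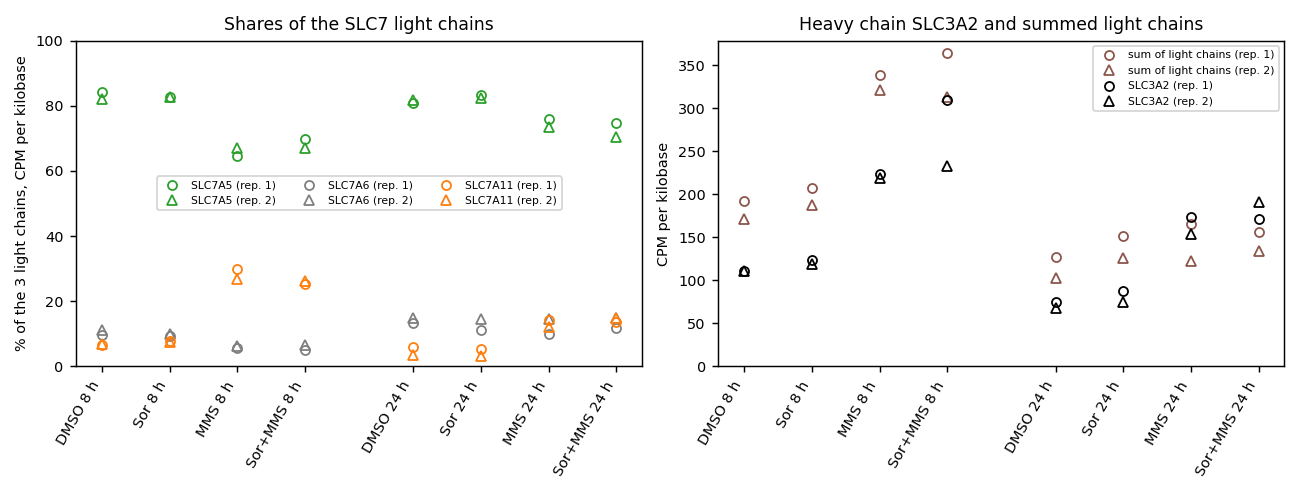
Left, share of each of the 3 light chains SLC7A5, SLC7A6 and SLC7A11 in their sum (percent of CPM per kilobase); right, SLC3A2 and the sum of the light chains in CPM per kilobase, each point 1 library (circle replicate 1, triangle replicate 2). SLC7A11 takes 29.7% and 26.7% after MMS at 8 h, and SLC3A2 lies above the light chain sum in the 4 libraries with MMS at 24 h.

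Per kilobase, SLC7A5 (151 ± 14.8, SD, n = 2) and SLC1A5 (146 ± 7.42) led the levels in DMSO at 8 h, followed by SLC3A2 (111 ± 0.205) and SLC38A2 (103 ± 0.666). The levels of SLC7A5 and SLC1A5 did not differ beyond their spread. SLC38A1 (68.0 ± 6.25) and SLC7A1 (48.5 ± 1.78) came next, and SLC7A6 (18.7 ± 0.712), SLC7A11 (12.0 ± 0.475), SLC43A1 (7.18 ± 1.08) and SLC1A4 (4.68 ± 1.19) were low. After MMS at 8 h the mean of SLC7A11 was 93.4 ± 10.5 per kilobase, above that of SLC7A1 (76.6 ± 2.20). It did not differ beyond the spread from SLC38A1 (90.9 ± 0.577), whose libraries lay between those of SLC7A11. Fewest reads lay behind SLC1A4, with 164 to 1680 counts per library, and SLC43A1, with 234 to 644. The summed level of the 10 genes was 3270 and 3240 CPM in DMSO at 8 h, 5629 and 5449 CPM in MMS, 3288 and 3288 CPM in sorafenib and 5852 and 5443 CPM in the combination. At 24 h the sums were 2642 and 2281 CPM in DMSO, 3376 and 2916 CPM in MMS, 2789 and 2507 CPM in sorafenib and 3183 and 3159 CPM in the combination, so that the groups with MMS lay above DMSO at both times.

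Ordered by mean level over the 8 groups, MMS or the combination at 8 h was the highest group for each of the 10 genes. The libraries of these 2 groups overlapped in SLC1A4, SLC7A1, SLC7A5, SLC7A6, SLC7A11 and SLC38A2. The highest group also overlapped sorafenib at 24 h in SLC38A2 and the combination at 24 h in SLC7A6. DMSO at 24 h was the lowest group for SLC3A2, SLC7A1, SLC7A5, SLC7A6, SLC7A11 and SLC38A1. It overlapped the sorafenib group at 24 h in SLC7A1, SLC7A11 and SLC38A1, the MMS group at 24 h in SLC7A5 and SLC7A6, and the combination at 24 h in SLC7A5. For SLC38A2 the lowest groups were the combination and MMS at 24 h, whose libraries overlapped, and for SLC1A4 all 4 groups at 24 h overlapped their neighbours. On CPM scaled by TMM factors, 9583 other genes had a mean of at least 10. SLC7A11 had 413 of them at a Pearson r over 0.9 across the 16 libraries, SLC7A6 had 2 and SLC38A2 had 11.

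Amino acid transporter genes outside the 10 moved in both directions. Of 42 other plasma membrane and lysosomal transporter genes, 23 were too low to test, and of the 19 tested 3 rose and 1 fell after MMS at 8 h, with a median of 0.00, beside 26.5% of all genes called in either direction and 14.5% called as higher. These counts lie near the shares over all genes. With the replicate block, which called 43.3% of all genes for MMS at 8 h and 48.3% at 24 h, 4 of the 19 rose and 4 fell at 8 h. The glycine transporter SLC6A9 rose from 17.1 and 16.3 CPM to 30.9 and 27.6 CPM (0.85 ± 0.16, edgeR adjusted p = 0.00214). SLC6A14 (0.84 ± 0.26) and the lysosomal carrier SLC36A1 (0.29 ± 0.09) rose also, and the neutral carrier SLC38A4 fell (-1.53 ± 0.27, edgeR adjusted p = 0.00135), a member of the same family as SLC38A1 and SLC38A2. In fits without 1 library, SLC36A1 was lost in 4 of 4 and SLC6A14 in 3 of 4.

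At 24 h, 2 of the 19 rose and 7 fell, beside 31.5% of all genes called, with 3 to 5 falls in the fits without 1 library and with 4 rises and 8 falls under the block. SLC6A9 was now below DMSO, at 7.59 and 8.54 CPM against 20.3 and 19.99 CPM (-1.37 ± 0.17, edgeR adjusted p = 0.000171). The difference of its MMS effects between the times was -2.22 ± 0.24 (edgeR adjusted p = 0.000329), past the threshold as in SLC1A4. The lysosomal cystine exporter CTNS rose (0.63 ± 0.09), while the taurine transporter SLC6A6 (-0.56 ± 0.09) and SLC38A4 (-2.02 ± 0.28) fell. The cationic carrier SLC7A2, a relative of SLC7A1, did not pass at either time.

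**Figure D4:**
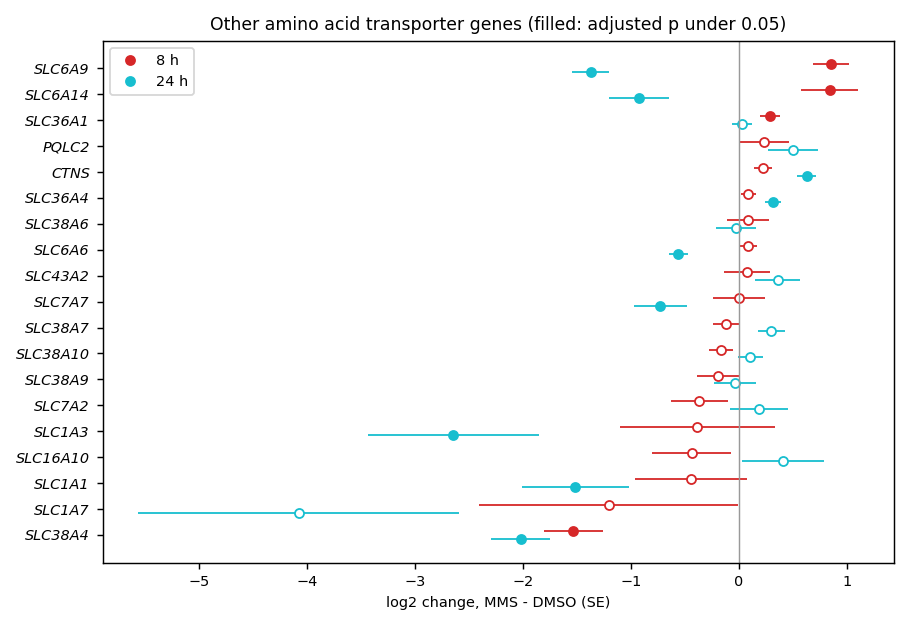
Log2 change of MMS against DMSO at 8 h (red) and 24 h (cyan) for the 19 tested transporter genes outside the 10, with bars of 1 SE from the edgeR fit and filled points at an adjusted p under 0.05, ordered by the value at 8 h. SLC6A9 lies at 0.85 at 8 h and -1.37 at 24 h, and SLC38A4 lies below 0 at both times.

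Of 11 tested mitochondrial amino acid carriers, which move amino acids across the inner mitochondrial membrane, 1 rose and 4 fell after MMS at 8 h, beside 26.5% of all genes called. The 4 were the aspartate-glutamate carriers SLC25A13 (-0.44 ± 0.07) and SLC25A12 (-0.78 ± 0.17) and the sideroflexins SFXN2 (-1.04 ± 0.19) and SFXN3 (-0.77 ± 0.19). Without 1 library SFXN3 was lost in 2 of 4 fits and SLC25A12 in 1 of 4, and the rises ran from 0 to 1. At 24 h 1 rose, the glutamate carrier SLC25A22 (0.45 ± 0.11), lost in 1 of 4 fits, and 1 fell, SFXN3 (-1.07 ± 0.19), beside 31.5% of all genes. With the block, which called 48.3% of all genes, 3 rose and 4 fell at 24 h.

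Cystine brought in by SLC7A11 is reduced to cysteine, a building block of glutathione. Of 9 tested genes listed under cystine use and glutathione synthesis, 5 rose and none fell after MMS at 8 h, with a median of 1.06, beside 26.5% of all genes called. With the block, which called 43.3% of all genes there, 6 rose and 1 fell. GCLM and GCLC, the subunits of the enzyme that starts glutathione synthesis, changed by 1.60 ± 0.11 (edgeR adjusted p = 2.7e-06) and 1.06 ± 0.11. TXNRD1, thioredoxin reductase, stood at 645 and 594 CPM in DMSO and at 2849 and 2408 CPM in MMS (2.12 ± 0.12), and CHAC1, which degrades glutathione, changed by 3.32 ± 0.33. CTH, which makes cysteine from cystathionine, changed by 1.63 ± 0.23, and these 5 genes passed in each fit without 1 library. At 24 h 1 of the 9 rose and 1 fell, beside 31.5% of all genes called. With the block, which called 48.3% of all genes there, 3 rose and 2 fell. The difference between the times passed for 5 of the 9, all lower, beside 9.13% of all genes, and the median difference was -1.13. Among the 8 fits without 1 library CTH lost this call in 5.

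Of 36 tested genes of amino acid sensing by mTORC1, the kinase complex that responds to leucine and arginine, 7 rose and 3 fell at 8 h, and 7 rose and 6 fell at 24 h, shares near the 26.5% and 31.5% of all genes called. With the block 9 rose and 4 fell at 8 h, and 10 rose and 10 fell at 24 h, beside 43.3% and 48.3% of all genes. SESN2, a leucine sensor that restrains mTORC1, stood at 12.9 and 12.7 CPM in DMSO and at 105 and 102 CPM in MMS at 8 h (3.05 ± 0.12). The other 3 named by the smallest adjusted p were RPTOR, the mTORC1 scaffold, lower (-0.75 ± 0.10), and LAMTOR3 (0.76 ± 0.11) and RRAGC (0.87 ± 0.14) of the lysosomal docking machinery, higher. At 24 h the inhibitor DDIT4 stood at 44.6 and 42.1 CPM in MMS against 203 and 250 CPM in DMSO (-2.44 ± 0.22). At 8 h DDIT4 had been higher in MMS, at 197 and 177 CPM against 84.8 and 72.2 CPM in DMSO. Its DMSO level was thus itself higher at 24 h, and the part of this shift in the change at 24 h was not tested. At 24 h C7orf60 (-0.77 ± 0.15) and GATSL3 (-1.14 ± 0.27) were lower and LAMTOR3 (0.48 ± 0.11) higher. Without 1 library the counts at 24 h ran from 2 to 5 higher and from 3 to 7 lower, and GATSL3 and LAMTOR3 were each lost in 1 of 4 fits.

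The mRNAs of 8 transcription factors with known sites in transporter genes all rose after MMS at 8 h, with a median of 1.32, beside 14.5% of all genes called as higher. ATF4 stood at 166 and 139 CPM in DMSO and at 407 and 358 CPM in MMS, a change of 1.36 ± 0.17 (edgeR adjusted p = 0.000139). Its partners and targets CEBPG (1.55 ± 0.10), CEBPB (1.27 ± 0.14), DDIT3 (2.10 ± 0.18) and ATF3 (3.52 ± 0.23) rose also. NFE2L2 (0.68 ± 0.09), MYC (0.56 ± 0.10) and BACH1, a repressor at antioxidant elements (0.39 ± 0.11), completed the list, and BACH1 was lost in 3 of 4 fits without 1 library. At 24 h, where 31.5% of all genes were called and 48.3% with the block, ATF3 (1.26 ± 0.23), MYC (0.37 ± 0.10) and CEBPG (0.34 ± 0.10) stood above DMSO. NFE2L2 (-0.29 ± 0.09) and BACH1 (-0.43 ± 0.11) stood below it, and ATF4 (0.25 ± 0.17), DDIT3 (0.41 ± 0.18) and CEBPB (-0.17 ± 0.14) did not pass. Of these 5 calls ATF3 passed in each fit without 1 library, and with the block 5 factors rose and 2 fell. The difference of the MMS effects between the times passed for 7 of the 8, all lower, MYC being the exception (-0.20 ± 0.14), beside 9.13% of all genes. ATF4 lost this call in 4 of 8 fits without 1 library (adjusted p of 0.0699 at most).

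Sorafenib against DMSO and the combination against MMS called no gene of these 5 lists at either time by edgeR. The replicate block called 702 of the 13948 genes tested for sorafenib at 8 h and 1001 at 24 h. For the combination against MMS it called 1326 at 8 h and 283 at 24 h. Beside these, 2 of the 19 other transporters rose with sorafenib at each time and 1 fell at 24 h. In the combination against MMS 3 rose at 8 h and 1 at 24 h. Of the genes of cystine use and glutathione synthesis, the block called 1 as higher with sorafenib at each time and 1 as higher in the combination against MMS at 8 h. Of the mTORC1 genes it called 1 as lower with sorafenib at 8 h, and 2 at 8 h and 1 at 24 h as lower in the combination against MMS. Of the transcription factors it called 2 as lower with sorafenib at 24 h and 1 as lower in the combination against MMS at each time, and of the mitochondrial carriers 0 in any of these 4 comparisons.

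The genes whose levels followed each transporter most closely over the 16 libraries differed between the members. Likeness was Pearson's r over the libraries of log2 CPM, here scaled by TMM factors and with a small offset. It is a description in which the treatment groups are shared by all genes, and no test was made. SLC7A11 was most like USP1 (r = 0.99), a deubiquitinase, followed by SARS (0.989) and WARS (0.986), the cytosolic seryl- and tryptophanyl-tRNA synthetases. SLC3A2 also had SARS (0.979) and WARS (0.972) among its nearest 3, with the replication factor CDC6 between them (0.974), and SLC7A5 had alanyl-tRNA synthetase AARS first (0.968), then WTAP and MINA. SLC1A4 was nearest to the splicing factor SRSF6 (0.987) and the heat shock gene HSPA1B (0.987), whose reads can be shared with a near-identical copy, then C17orf91. SLC1A5 was nearest to UBE2G2 (0.985), TIMM44 and RRN3, and SLC43A1 to TIMM44 (0.943), HHEX and TMEM222. SLC7A1 was nearest to IBA57 (0.984), ZC3H4 and EIF5A2, and SLC38A1 to the translation termination factor GSPT1 (0.972), ELK4 and CUL3. SLC38A2 was nearest to NCOA7 (0.937), HSPA13 and CD164, and SLC7A6, which changed least, to ANKFY1 (0.908), MIER3 and FAM13B.

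Among the 10 genes themselves r over the 16 libraries ran from 0.05 between SLC38A2 and SLC43A1 to 0.96 between SLC7A1 and SLC38A1. SLC3A2 had 0.95 with both SLC7A11 and SLC1A5, and 0.67 with SLC7A5, its most abundant light chain here. SLC38A2 stood apart, with 0.12 to SLC3A2 and 0.49 to SLC38A1. The libraries of a group differed in a steady direction for some genes: SLC7A5, SLC7A11 and SLC38A2 were higher in replicate 1 in 8 of 8 groups, and SLC1A4 was higher in replicate 2 in 8 of 8 groups. Replicate numbers follow the way the titles begin, and the labels do not say what that marks.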

How the data were processed

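The deposited files hold raw read counts per gene. Per the submitters' processing notes the authors used CASAVA 1.8.2 for base calls, the genome build hg19, the aligner TopHat2 2.0.8b and the counter HTSeq. Annotation, strand setting, and version and mode of HTSeq are not given in the sources used here. The 5 counter rows of each file were left out of totals and tests. Reads in no gene were 6.88 to 7.94% of reads per library. The labels do not tie libraries to the 2 experiments of the series text, so p-values measure only the spread between these libraries, which may be technical.

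Counts were tested in R 4.3.3 with edgeR 4.0.16 (TMM factors, filterByExpr, 13948 genes kept, 1 mean per group over all 16 libraries, 8 residual degrees of freedom, quasi-likelihood test, Benjamini-Hochberg adjustment over all genes) in 12 comparisons. The script was tested on simulated data. The alternatives tried were DESeq2 1.42.0, RLE factors, a filter at a mean count of 50 or none, a fit of only the libraries compared, fits without 1 library, and the title start as replicate block. Deviations from group means correlated at 0.433 to 0.771 (median 0.667) over 28 pairs of groups, so the block is given beside the counts and calls it changed most. Named are all members, up to 4 genes of each list with the smallest adjusted p, all transcription factors and the 3 most similar genes per member; SLC6A14, SLC36A1, SLC7A2 and CTH were named after their values were seen. The members and lists were chosen with earlier results of these data known. GENCODE v29 gave positions and exon lengths, and RefSeq gave promoters.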

Additional observations from a re-analysis of the deposited data

Results flagged for a closer look

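The MMS effect differed between 24 h and 8 h, by a test of the difference itself, for SLC1A4 (log2 difference -1.98, edgeR adjusted p = 0.00474) and for SLC38A2 (-0.83, edgeR adjusted p = 0.0205). SLC1A4 was above DMSO at 8 h in both MMS libraries and overlapped DMSO at 24 h. SLC38A2 was above DMSO in both MMS libraries at 8 h and below it in both at 24 h. DMSO itself was lower at 24 h than at 8 h for SLC1A4 in both libraries (log2 value -0.71 ± 0.24, edgeR adjusted p = 0.182), and not for SLC38A2 (0.15 ± 0.14, edgeR adjusted p = 0.663). The part of this shift of the controls in the 2 differences was not tested.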

How the results depend on the processing

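With 2 libraries per group, the counts of calls depended on the fit more than the values did. The single log2 values followed through all alternatives were those of the 10 genes for MMS and the combination against DMSO, DMSO at 24 h against 8 h and the difference between the times, and, for the other comparisons, those of the genes with the lowest and highest value or a call. Of these, 687 kept direction and side of the threshold, 18 moved past it, 56 moved below it and 15 changed sign, each of these 15 a value that had not passed, in a fit without 1 library. Over these fits the values ran, for the combination against DMSO at 8 h, from -0.048 to 0.083 in SLC7A6; for MMS at 24 h, from -0.53 to 0.0035 in SLC1A4, from -0.11 to 0.43 in SLC7A5 and from -0.0062 to 0.12 in SLC7A6; for the combination at 24 h, from -0.29 to 0.0205 in SLC1A4, from -0.0197 to 0.298 in SLC7A5 and from -0.0171 to 0.148 in SLC38A1; for the MMS effect at 24 h minus 8 h, from -0.0876 to 0.214 in SLC1A5 and from -0.0793 to 0.0335 in SLC7A6; for DMSO at 24 h against 8 h, from -0.0264 to 0.2997 in SLC38A2. The cause was not tested. For sorafenib against DMSO, the combination against MMS and the interaction, the range over fits without 1 library crossed 0 in 28 of 60 values of single genes at the 2 times, none of them called, the widest that of SLC7A11 for sorafenib at 24 h (-0.51 to 0.81). RLE factors and a mean count of at least 50 each left 7 of the 10 genes called for MMS at 8 h, and no other count of the 10 moved with RLE factors.

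With the title start as replicate block, all genes called were 6035 for MMS, 702 for sorafenib, 5514 for the combination against DMSO, 1326 for the combination against MMS and 7 for the interaction at 8 h, and 6730, 1001, 7043, 283 and 4 at 24 h. They were 3562 for the MMS effect at 24 h minus 8 h and 1902 for DMSO at 24 h against 8 h. Of the 10 genes the block called 1 for sorafenib at 24 h, 6 for the difference between the times and 8 for DMSO at 24 h against 8 h, beside the changes given above. DESeq2 called 177 and 294 genes for sorafenib at 8 h and 24 h, 366 and 86 for the combination against MMS, 1 and 1 for the interaction, and 531 for DMSO at 24 h against 8 h (5 of the 10). With no filter the counts were 101 for sorafenib at 8 h, 139 and 43 for the combination against MMS and 1 for the interaction at 24 h, and with a mean count of at least 50, 166 for DMSO at 24 h against 8 h. Fitting only the libraries compared called 4 and 5 genes for sorafenib, 29 and 5 for the combination against MMS, 1948 for the combination against DMSO at 8 h, 2714 for MMS at 24 h (3 of the 10), 776 for the difference between the times, and 0 for DMSO at 24 h against 8 h (0 of the 10).

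Leaving out 1 library gave these ranges of all genes called: 2272 to 2619 for MMS, 5 to 17 for sorafenib, 11 to 644 for the combination against MMS, 2121 to 3179 for the combination against DMSO and 0 to 28 for the interaction at 8 h; 2466 to 3492, 12 to 75, 3 to 6, 2940 to 3732 and 0 to 0 at 24 h; 577 to 917 for the difference between the times and 0 to 10 for DMSO at 24 h against 8 h. Of the 10 genes, 6 to 6, 0 to 0, 0 to 0, 5 to 7 and 0 to 0 passed at 8 h, 3 to 5, 0 to 0, 0 to 0, 4 to 6 and 0 to 0 at 24 h, 1 to 2 for the difference and 0 to 0 for DMSO, in that order. In these fits, which had no block, a lone library was given the spread of the other groups. It was set against both libraries of the other group, so that differences between the 2 sets of libraries enter the value. Of 80 group means, 12 moved by more than 1 SD with TMM-scaled CPM and 13 with RLE-scaled CPM. SLC1A4 and SLC43A1 have the fewest reads of the 10 genes, which limits the precision of their changes.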
